A study of Drosophila melanogaster with 30 samples.

Results

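The genes described here encode the glutathione S-transferases, the enzyme that makes glutathione, catalase and mitochondrial superoxide dismutase. They were measured in the brains of flies that slept, were kept awake at night or were handled in their active period. They were chosen by name. A gene belongs to the group if its current symbol is Gst followed by a capital letter, or is Gclc, Gclm, Sod1, Sod2 or Cat, and if a probe set of the array carries that symbol alone. A probe set is the group of short probes that reports 1 transcript. This gave 40 probe sets for 38 genes, out of 10844 genes named on the array, and each gene was followed through its probe set with the highest mean. The 38 are 34 transferase genes (11 of the Delta class, 14 Epsilon, 3 Omega, 3 Theta, 2 Zeta and 1 Sigma), Gclc, Gclm, Cat and Sod2. Sod1 and GstT1 are not analysed here.

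All flies were 5-day-old virgin females of the wild-type strain Canton-S, kept at 25 °C with 12 h of light and 12 h of darkness and 50 to a population. In the deprivation experiment (21 arrays), flies were kept awake by hand from ZT14, when consolidated sleep begins (ZT counts hours from lights-on), and killed after 2, 4 or 6 h. Flies left to sleep were killed at the same 3 hours (ZT16, ZT18 and ZT20), and a 0 h group at ZT14. The active period experiment (9 arrays) applied the same handling for 4 h from ZT10, across lights-off, when flies are normally awake. These stimulated flies were killed at ZT14 beside undisturbed wake flies, with a 0 h group at ZT10. Each of the 10 groups has 3 Affymetrix Drosophila Genome 1.0 arrays, and each array holds RNA of 1 pool of 139 to 193 dissected brains. The p-values below measure the spread between such pools. In a whole brain, fewer cells of a type and less RNA per cell cannot be told apart.

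Values are log2 signals after the robust multi-array average (RMA), and a difference of 1 is a 2-fold change. Array medians lay between 4.89 and 4.96, and arrays of a group correlated at 0.974 to 0.997 across probe sets. The 3 arrays per group limit the precision. The labels of sleeping 6 h replicate 1 conflict, since its source name says deprived, and it was grouped as sleeping by its title. One array stood apart. In deprived 2 h replicate 2 the mean signal of 6 measured neuron markers was 5.51, against 6.00 to 6.72 in the other 20 arrays of that experiment. Mean signals of muscle markers (4.475 against 4.05 to 4.36) and of gut and Malpighian tubule markers (5.80 against 5.44 to 5.72) were above those 20 arrays. Its differences between 3' and 5' control probes, a sign of RNA quality, were 2.36 for GAPDH and 2.70 for actin, the highest of that experiment. Calls of the 38 genes that changed without this array are given both ways. The 6 neuron markers lay between percentile 31.3 (cac) and 95.1 (fne) of all probe sets by mean signal. The 7 measured markers of fat body, a tissue around the brain, lay between percentile 22.8 (Fbp2) and 99.9 (the yolk protein gene Yp1), and signals of different probe sets are not compared. How much RNA of tissue around the brain the pools held was not tested.

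Glutathione is a tripeptide that cells use as their main soluble thiol. Its first and rate-limiting step is made by glutamate-cysteine ligase, in which Gclc is the catalytic subunit and Gclm the modifier that raises its activity, and in fly heads both genes are known to cycle with the circadian clock. Glutathione S-transferases couple glutathione to lipid peroxidation products, insecticides and other reactive molecules, and several are targets of the oxidative stress regulator CncC, which Keap1 restrains. Superoxide dismutases turn superoxide into hydrogen peroxide and catalase removes it. Flies lack glutathione reductase, and the thioredoxin system recycles their glutathione.

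Most of the transferase genes lie in tandem rows. GstD1 to GstD10 are neighbours on chromosome arm 3R with no other coding gene between them, and GstE1 to GstE10 form a like row on 2R. Copies within a row are alike in sequence, so their probe sets may share signal, and the members of a row are not independent of each other. The probe sets with the highest mean signal over the 30 arrays were those of GstD1 (9.95), Cat (8.92), GstE12 (8.42), Sod2 (8.19) and GstS1 (7.60), and those with the lowest were GstE10 (3.12), GstD6 (3.24) and GstE5 (3.30). Signals of different probe sets are not a ranking of transcripts. For 13 of the 38 genes the mean signal was below the median probe set (4.93), where RMA compresses differences. The median spread between arrays of a group was 0.130 for the 38 genes (SD) and 0.118 for all 13966 probe sets tested.

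The clearest movements were in the 2 subunits of glutamate-cysteine ligase, and they ran in opposite directions through the night. Gclc rose in sleeping flies from ZT14 to ZT20, and Gclm fell in deprived flies over the same hours. At 6 h both subunits were lower in every deprived array than in every sleeping array, as were 13.4% of all probe sets. Sleeping and deprived arrays of that hour were hybridised in different runs. Gclc and Gclm were the only members past the threshold (Benjamini-Hochberg adjusted p of 0.05 over 13966 probe sets) in any of the 11 comparisons fitted with limma. Neither trend call held with hybridisation run as a block, as given below.

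Gclc, the catalytic subunit, gave 5.56, 5.71 and 5.68 on the 3 arrays at ZT14. In sleeping flies it gave 5.70, 5.69 and 5.96 at 2 h, 6.18, 6.22 and 6.03 at 4 h, and 6.29, 6.36 and 6.33 at 6 h. The 6 arrays at 4 and 6 h were all above the 6 arrays at 0 and 2 h. The slope was 0.12 ± 0.0183 log2 units per hour (SE; limma, adjusted p = 0.00333), which made Gclc 1 of 38 members called in the sleeping trend, where 0.107% of all probe sets were called. In deprived flies Gclc gave 6.02, 5.47 and 5.89 at 2 h, 6.21, 6.05 and 5.94 at 4 h, and 5.92, 6.04 and 5.80 at 6 h. The slope there was 0.05 ± 0.0183 per hour and missed the threshold (adjusted p = 0.212).

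The 4 and 6 h sleeping arrays were hybridised in other runs than the 0 and 2 h arrays, as far as the times in the scanner settings tell. With hybridisation run as a block the sleeping slope of Gclc was 0.15 per hour and no longer called (adjusted p = 0.641). Within single runs, sleeping flies at 2 h were 0.15 above ZT14 (run 3, 5 arrays) and sleeping flies at 6 h were 0.21 above those at 4 h (run 2, 5 arrays). Within chip lots 2 and 3 the slope was 0.10 (4 arrays) and 0.13 (7 arrays) per hour. In both lots the 4 and 6 h arrays were again in another run than the 0 and 2 h arrays. These slopes therefore cannot separate run from hour, and the step from 2 to 4 h was not measured within any run. Leaving out any single array kept Gclc past the threshold in the sleeping trend, with the same split of runs.

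Gclm, the modifier subunit, gave 7.25, 7.34 and 7.02 at ZT14. In deprived flies it gave 6.36, 7.22 and 6.68 at 2 h, 6.99, 6.74 and 6.78 at 4 h, and 6.39, 6.44 and 6.24 at 6 h. All 3 arrays at 6 h lay below all 3 at ZT14, while the 2 h arrays spread over nearly the whole range. The slope was -0.12 ± 0.0233 per hour (limma, adjusted p = 0.0221), and Gclm was 1 of 38 members called in the deprived trend, against 0.294% of all probe sets. In sleeping flies it gave 7.09, 6.99 and 7.14 at 2 h, 7.02, 6.82 and 7.01 at 4 h, and 6.96, 6.80 and 6.78 at 6 h. That slope was -0.06 ± 0.0233 per hour and was not called (adjusted p = 0.513).

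The call for Gclm in deprived flies rested on few arrays. It was lost without ZT14 replicate 1 or 2 and without deprived 6 h replicate 1 or 3, with adjusted p between 0.0728 and 0.151, and the slope then lay between -0.13 and -0.11. With hybridisation run as a block the slope was -0.12 (adjusted p = 0.124), and without the 4 arrays of run 4, all of deprived flies, it was -0.11 (adjusted p = 0.238). Within run 3 the deprived flies at 6 h were 0.88 below ZT14 (4 arrays; difference -0.88), and within run 4 the 6 h array was 0.44 below the 2 h array (difference -0.44). Within run 2 the deprived 4 h array (6.99) lay between the 2 h arrays, replicate 1 (6.36) and replicate 2 (7.22). It was 0.20 above their mean (3 arrays), and replicate 2 is the array that stood apart. Within chip lots 2 and 3 the slope was -0.13 and -0.12 per hour.

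The 2 trends share the ZT14 arrays. The difference of the slopes, deprived minus sleeping, in which the shared arrays cancel, was -0.07 ± 0.0192 per hour for Gclc (limma, adjusted p = 0.293) and -0.06 ± 0.0244 for Gclm (adjusted p = 0.408). This comparison was added after the data were seen, and it called 5 probe sets (0.0358%) and 0 members. At an unadjusted p under 0.05 it held 11 members and 1370 probe sets (9.81%). That the slopes of either gene differ between sleeping and deprived flies was therefore not shown.

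**Figure D1:**
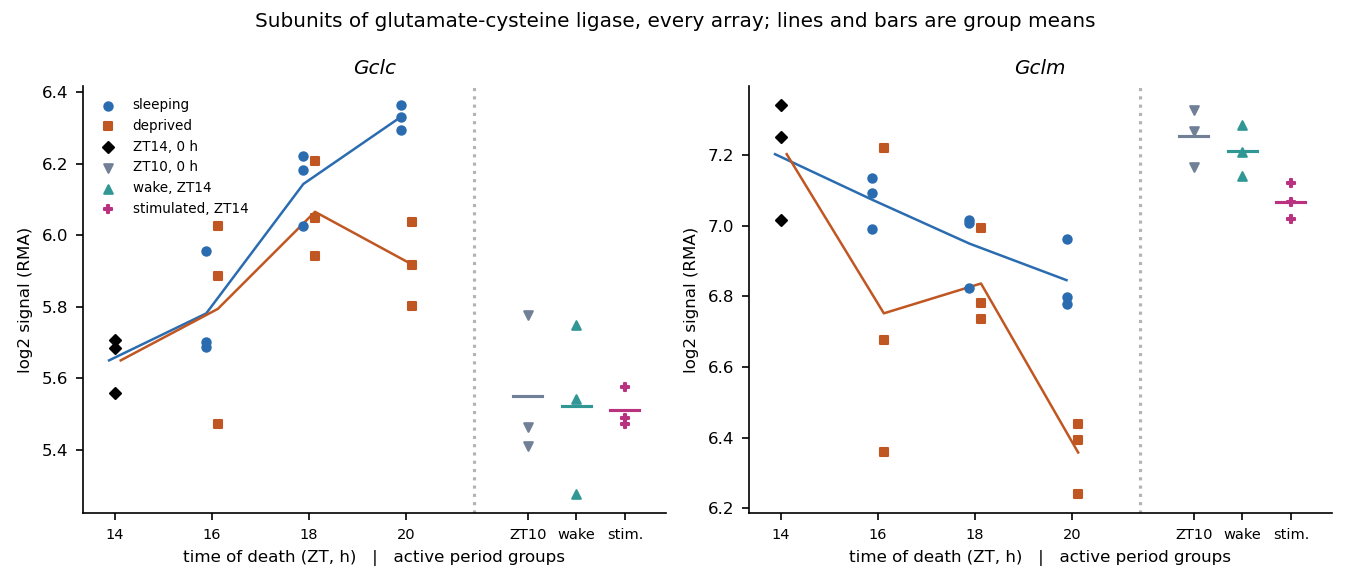
Log2 signal of Gclc (left) and Gclm (right) on every array against the hour of death, with active period groups at the right of the dotted line; points are arrays, lines and short bars are group means. Gclc in sleeping flies climbs from 5.56 to 5.71 at ZT14 to 6.29 to 6.36 at ZT20, and the deprived arrays at ZT20 lie below the sleeping ones for both genes.

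At 6 h, 0 of 38 members passed the threshold (limma), where 0.0931% of all probe sets did. Gclc was 0.41 ± 0.116 lower in deprived flies (difference -0.41, 0.752-fold, adjusted p = 0.132) and Gclm 0.49 ± 0.147 lower (difference -0.49, 0.713-fold, adjusted p = 0.145). Both were past the threshold once the array that stood apart, deprived 2 h replicate 2, was left out of the shared estimate of spread, with adjusted p = 0.0421 for Gclc and 0.0393 for Gclm, in a fit that called 97 probe sets in place of 13. In the mean over 2, 4 and 6 h without that array Gclm was lower by 0.39 (difference -0.39, adjusted p = 0.00284), against -0.31 ± 0.0849 with it (adjusted p = 0.108). The fit without that array called 1.1% of all probe sets, against 0.924% with it. In the same mean Gclc was -0.16 ± 0.0667 (adjusted p = 0.305), and -0.11 without that array (adjusted p = 0.429). With the GAPDH covariate described next it was -0.05 (adjusted p = 0.895).

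The 3 sleeping arrays at 6 h were all hybridised in run 2 and the deprived ones in runs 3 and 4, so within that hour run and sleep cannot be told apart directly. A fit with the run as a block, which takes the run effect from the other groups, gave -0.49 for Gclc (adjusted p = 0.161) and -0.43 for Gclm (adjusted p = 0.285). The difference between 3' and 5' probes of the GAPDH control, a sign of RNA quality, was 1.94 to 2.21 in deprived and 1.59 to 1.81 in sleeping arrays at 6 h. With it as a covariate Gclc was -0.24 (adjusted p = 0.449) and Gclm -0.60 (adjusted p = 0.288).

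The deprivation difference of Gclc changed from 0.01 at 2 h to -0.41 at 6 h, a change of -0.42 ± 0.163 with an unadjusted p of 0.0177 that missed the threshold (adjusted p = 0.999). In that comparison 0 of 38 members were called (limma; 2 at an unadjusted p under 0.05, with GstD4 the other), against 0.00716% of all probe sets (3.32% at an unadjusted p under 0.05). GstD4 gave 0.25 ± 0.119 (adjusted p = 0.999) and GstE9, the next by p, 0.45 ± 0.229 (adjusted p = 0.999). With the run as a block the change was -0.65 for Gclc (adjusted p = 0.486), 0.08 for GstD4 (adjusted p = 0.923) and 0.85 for GstE9 (adjusted p = 0.530). Without deprived 2 h replicate 2 the change of Gclc was -0.58 (adjusted p = 0.126) and that of GstE9 0.65 (adjusted p = 0.263). The change of Gclm was -0.17 with that array and 0.07 without it.

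In the active period neither subunit was called. Gclc gave 5.75, 5.54 and 5.28 in wake flies and 5.47, 5.49 and 5.58 in stimulated flies (difference -0.01 ± 0.117). Gclm gave 7.29, 7.21 and 7.14 in wake flies and 7.02, 7.07 and 7.12 in stimulated flies (difference -0.14), and these groups did not overlap.

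Transferase genes leaned the other way from the ligase, but no single one passed. In the mean over 2, 4 and 6 h, 0 of 38 members were called, against 0.924% of all probe sets. At an unadjusted p under 0.05, 10 members were higher and 4 lower in deprived flies, 36.8% of the 38, against 14.4% of all probe sets (6.56% higher and 7.82% lower). The difference was above 0 for 30 of the 34 transferase genes and for 0 of the other 4, which is 78.9% of the 38 members against 54.2% of all probe sets. The median difference was 0.07 for the 38 genes and 0.01 for all probe sets. Sod2 turned to 0.01 after a renewed quantile normalization and to 0.02 without deprived 4 h replicate 1. Within hybridisation run 2 at 4 h, 19 of the 38 were above 0 (3 arrays), and within chip lots 2 and 3 the mean was above 0 for 24 and 30 of them. Since neighbours in a row share sequence and all genes share arrays, these counts describe the genes and carry no test.

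By class, all 11 Delta genes were above 0 in the mean over 2, 4 and 6 h (median 0.08, range 0.02 to 0.25). So were 12 of 14 Epsilon genes (median 0.12, range -0.16 to 0.26). All 3 Omega genes (0.02 to 0.04) and all 3 Theta genes (0.07 to 0.12) were above 0. GstS1, the Sigma class enzyme that acts on the lipid peroxidation product 4-hydroxynonenal, was at -0.07. The Zeta genes split, with GstZ1 at 0.08 and GstZ2, related to maleylacetoacetate isomerases of tyrosine breakdown, at -0.10. The lean was not the same at each hour. At 4 h only 5 of 11 Delta genes (median -0.05) and 8 of 14 Epsilon genes (median 0.07) were above 0. At 2 h these counts were 10 and 11, and at 6 h 11 and 12. Of all members, 16 had 1 sign at 2, 4 and 6 h, 12 above 0 and 4 below. The mean signal was below the median probe set for 6 Delta and 5 Epsilon genes.

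**Figure D2:**
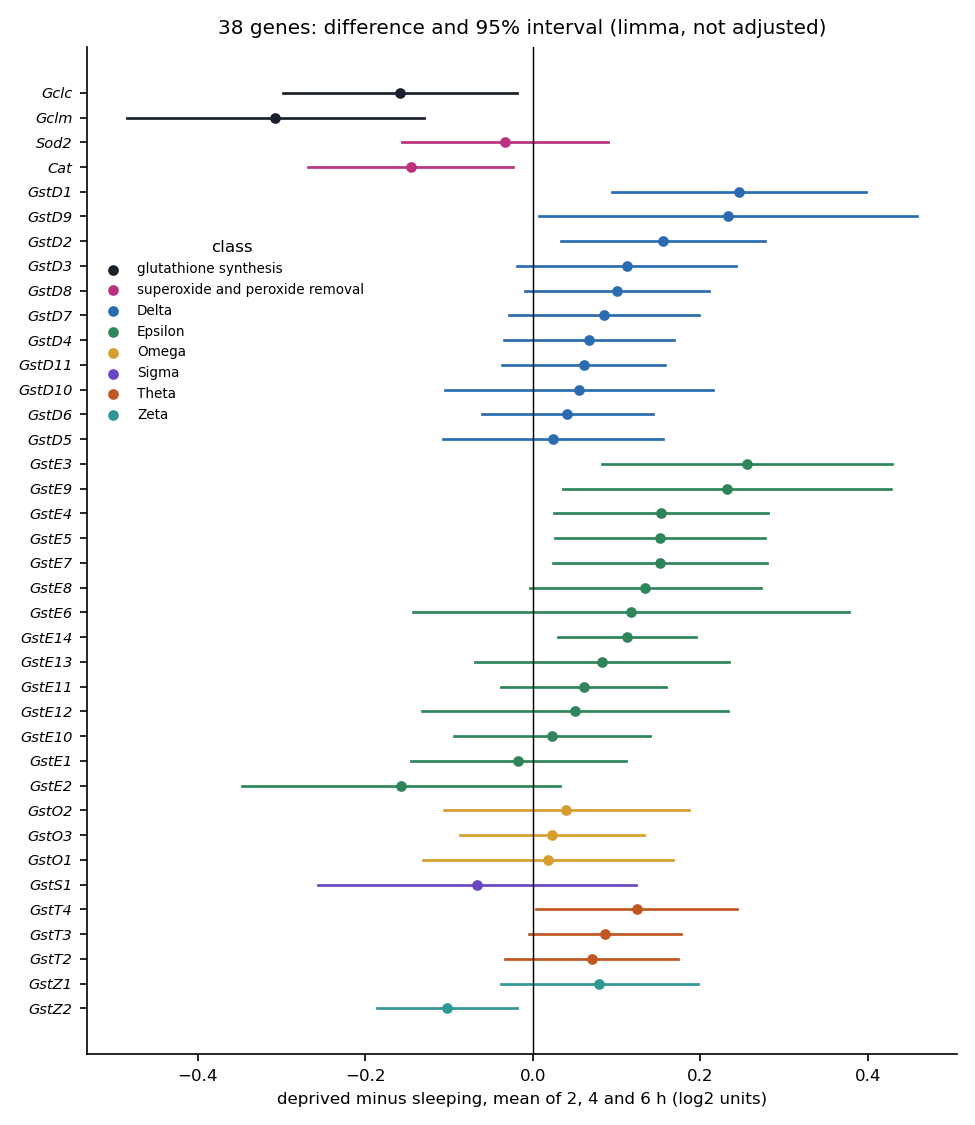
Deprived minus sleeping difference of each of the 38 genes as a mean over 2, 4 and 6 h (log2 units), with the unadjusted 95% interval of the limma fit, coloured by class. The 11 Delta genes all lie right of 0, Gclc, Gclm, Cat and Sod2 all lie left of it, and no gene passed the adjusted threshold.

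GstD1, the Delta enzyme known for breaking down DDT and widely used as a reporter of CncC, had the smallest p among the transferases. It gave 9.94, 9.91 and 9.86 in sleeping and 9.89, 10.13 and 10.10 in deprived flies at 2 h. At 4 h it gave 9.77, 9.74 and 9.80 in sleeping and 9.74, 10.01 and 10.35 in deprived flies, and at 6 h 9.70, 9.63 and 9.44 against 9.80, 9.84 and 10.14. Only at 6 h did the groups separate fully, and 7 of 9 deprived arrays were above the sleeping mean of their hour. The mean difference was 0.25 ± 0.0726 (1.19-fold, adjusted p = 0.131). In sleeping flies the signal went from a mean of 10.03 at ZT14 to 9.59 at ZT20, a slope of -0.07 ± 0.0199 per hour (adjusted p = 0.259), and in deprived flies the slope was -0.02 (adjusted p = 0.680).

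The difference of GstD1 leaned on some arrays. Without deprived 4 h replicate 1 it was 0.30 and called (adjusted p = 0.0416), beside 0.652% of all probe sets (0.924% with that array). With the run as a block it was 0.12 (adjusted p = 0.412), and without run 4 it was 0.10 (adjusted p = 0.465). Within chip lots 2 and 3 it was 0.11 and 0.40.

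GstE3, an Epsilon enzyme of the 2R row, gave 6.22, 6.22 and 6.38 in sleeping and 6.03, 6.69 and 6.35 in deprived flies at 2 h. At 4 h it gave 6.05, 6.03 and 6.39 against 6.25, 6.35 and 6.67, and at 6 h 6.35, 6.24 and 6.02 against 6.62, 6.62 and 6.61. The groups overlapped at 2 and 4 h and not at 6 h. The mean difference was 0.26 ± 0.0828 (1.19-fold, adjusted p = 0.181), with 8 of 9 deprived arrays above the sleeping mean of their hour. Without deprived 2 h replicate 1 it was 0.31 (adjusted p = 0.0466), beside 1.35% of all probe sets called (0.924% with that array). With the run as a block the difference was 0.20 (adjusted p = 0.372).

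The other transferases with an unadjusted p under 0.05 in the mean were GstE14, GstD2, GstE5, GstE4, GstE9, GstE7, GstD9 and GstT4, all higher, and GstZ2, which was lower. Their differences ran from 0.11 for GstE14 to 0.23 for GstD9 and GstE9 among the higher ones, with adjusted p from 0.220 to 0.337. GstE14, which is needed in the fly's ecdysteroid gland for making moulting hormone, was above the sleeping mean in 8 of 9 deprived arrays.

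At 2 h, 0 of 38 members were called (limma; 4 at an unadjusted p under 0.05, 10.5% of the members against 8.33% of all probe sets), where 0.00716% of all probe sets were. The smallest p belonged to GstD2, at 4.46, 4.57 and 4.43 in sleeping and 4.77, 4.90 and 4.61 in deprived flies, a difference of 0.27 ± 0.101 (adjusted p = 0.543). The groups did not overlap for GstD2, nor for GstD7 and GstE5. The share of all probe sets apart at 2 h is not given here. GstE5 followed at 0.24 ± 0.104 (adjusted p = 0.588), and turned to -0.18 with the run as a block (adjusted p = 0.994). Gclm was at -0.32 ± 0.147 (adjusted p = 0.597), and at -0.56 without deprived 2 h replicate 2. Cat stood at -0.15, Sod2 at -0.02 and GstD1 at 0.14.

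At 4 h, 0 of 38 members were called (limma; 3 at an unadjusted p under 0.05, 7.89% against 4.37%), where 0.0143% of all probe sets were. GstZ2 gave 5.06, 5.19 and 5.11 in sleeping and 4.91, 4.91 and 4.93 in deprived flies, a difference of -0.20 ± 0.0695 (adjusted p = 0.943) with no overlap between the groups. The share of all probe sets apart at 4 h is not given here. GstD9, the Delta gene next to GstD1, gave 6.11, 6.31 and 6.48 against 6.36, 6.96 and 7.06, a difference of 0.49 ± 0.187 (adjusted p = 0.956). That value was 0.06 without run 4, and the difference of GstD1 at this hour (0.27, adjusted p = 0.956) turned to -0.03. Leaving out that run leaves 1 deprived array at 4 h, whose spread is assumed to be that of the other groups. With the run as a block GstD9 was at 0.19 and GstD1 at 0.09. Gclc was at -0.08, Gclm at -0.11, Cat at -0.16 and Sod2 at 0.08.

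The largest spread of differences was at 6 h, from -0.49 for Gclm to 0.51 for GstE9. The median absolute difference of the 38 genes was 0.15 at 6 h, against 0.08 at 2 h and 0.10 at 4 h. Over all probe sets it was also largest at 6 h, at 0.12 against 0.09 and 0.07. At an unadjusted p under 0.05, 11 members were higher and 2 lower, 34.2% of the members. Of all probe sets, 9.4% were higher and 8.55% lower at that threshold. The groups did not overlap for 11 genes that were higher, all transferases, and for 3 that were lower, Gclc, Gclm and Sod2. That is 14 of 38, and it stands beside 28.8% of all probe sets whose groups were apart at this hour, 15.4% higher and 13.4% lower. GstD4 gave 3.19, 3.21 and 3.11 in sleeping and 3.58, 3.38 and 3.42 in deprived flies, a difference of 0.29 ± 0.0842 (adjusted p = 0.134), at the dim end of the array. GstE9, at the end of the Epsilon row, gave 6.13, 6.17 and 6.08 against 6.64, 6.51 and 6.76, a difference of 0.51 ± 0.162 (1.42-fold, adjusted p = 0.160).

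Calls at 6 h moved with the fit. With only the 6 arrays of that hour in the fit 120 probe sets passed in place of 13, GstE9 (adjusted p = 0.0298) and Gclm (adjusted p = 0.0385) among them. With the run as a block 704 passed, and GstE5, at 0.63 (adjusted p = 0.0385), was the single member among them.

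The F test of any difference at 2, 4 or 6 h called 0 of 38 members (limma; 12 at an unadjusted p under 0.05, 31.6% against 12.0%), against 0.222% of all probe sets. The study's own Fs test, run with 100 permutations, also called 0 members and 49 probe sets in all. Gclm had the smallest p by limma (adjusted p = 0.276), then GstD4 (0.294) and GstD2 (0.327), and Gclm was the single member to pass without deprived 2 h replicate 2 (adjusted p = 0.0116), where 74 probe sets passed in place of 31.

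**Figure D3:**
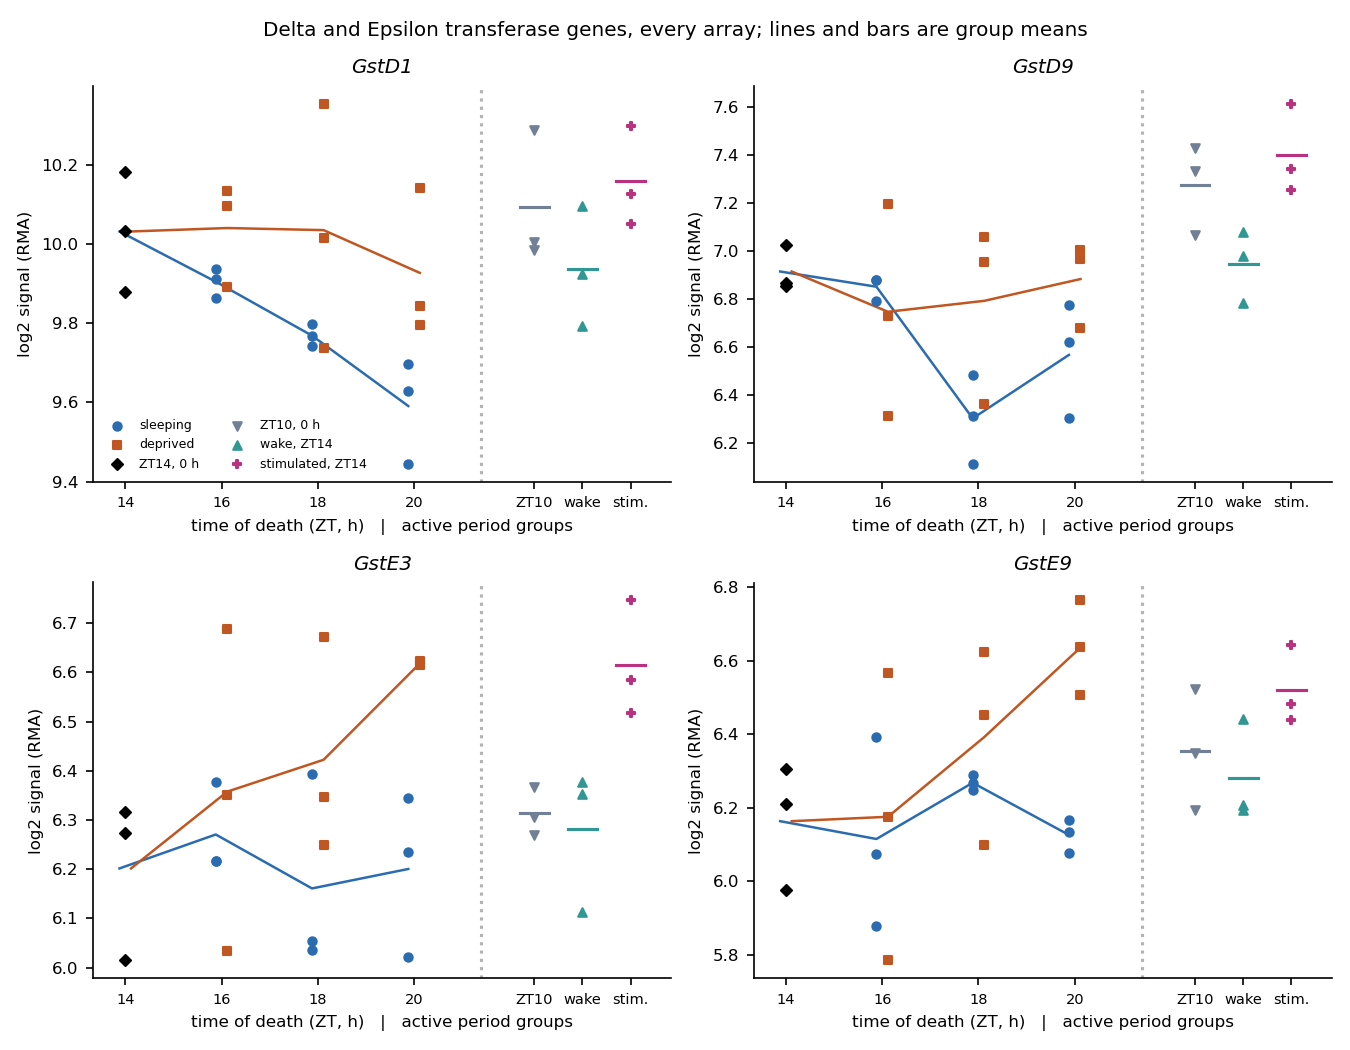
Log2 signal of GstD1, GstD9, GstE3 and GstE9 on every array, by hour of death for sleeping and deprived flies and, right of the dotted line, for the active period groups; lines and short bars are group means. At ZT20 the deprived arrays of GstD1, GstE3 and GstE9 all lie above the sleeping arrays, and the stimulated arrays of GstD9 and GstE3 lie above the wake arrays.

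Markers of the antenna were measured beside the transferase genes. Of 7 listed genes, mostly odorant-binding proteins of antennal support cells, 6 were measured, and the difference of all 6 was above 0 in the mean over 2, 4 and 6 h (median 0.31, none called). At 2 h it was above 0 for 4 of 6 (median 0.07). At 6 h their mean log2 signal per array was 5.86 to 5.99 in deprived and 5.13 to 5.51 in sleeping flies, and the median difference was 0.73. In the active period experiment the mean signal was 5.71 to 6.38 in stimulated and 5.31 to 5.66 in wake flies. Orco, the odorant co-receptor of olfactory neurons, stood at percentile 29.7 of all probe sets by mean signal and differed by 0.08 in the mean over 2, 4 and 6 h. The part of antennal RNA in the transferase differences was not tested.

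Of the 6 neuron markers 1 was called in the mean, fne, an RNA-binding protein of neurons, which fell by 0.42 (adjusted p = 0.00825). That mean includes deprived 2 h replicate 2, the array set apart by these same markers. The markers were not refitted without it or with the run as a block. The difference was below 0 for 5 of the 6 neuron markers (median -0.45), with brp at -0.06 and cac at 0.06. Their mean signal at 6 h was 6.00 to 6.29 in deprived and 6.42 to 6.72 in sleeping flies. The 4 measured photoreceptor markers were all below 0 (median -0.44). At 6 h all 6 measured glial markers were below 0 (median -0.22, none called), with a mean signal per array of 7.35 to 7.63 in deprived and 7.70 to 7.93 in sleeping flies, and in the mean over the hours 2 of 6 were above 0 (median -0.05). Whether these shifts bear on Gclc, Gclm or the transferases was not tested.

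Catalase and mitochondrial superoxide dismutase were not called in any comparison. Cat gave 8.92, 8.99 and 8.86 in sleeping and 8.61, 8.92 and 8.79 in deprived flies at 2 h. At 4 h it gave 8.80, 9.02 and 8.89 against 8.74, 8.56 and 8.94, and at 6 h 8.98, 8.69 and 8.81 against 8.69, 8.77 and 8.62. The groups overlapped at every hour, although 8 of 9 deprived arrays were below the sleeping mean of their hour. The mean difference was -0.15 ± 0.0583 (0.904-fold, adjusted p = 0.281), with a 95% interval of -0.27 to -0.02.

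Sod2, the manganese enzyme of mitochondria, gave 8.11, 8.12 and 8.11 in sleeping and 7.97, 8.16 and 8.16 in deprived flies at 2 h. At 4 h it gave 8.06, 7.97 and 8.14 against 7.83, 8.27 and 8.32, and at 6 h 8.20, 8.25 and 8.16 against 8.06, 8.09 and 7.96. Only at 6 h did the groups separate, with the deprived arrays lower (difference -0.17, adjusted p = 0.376). The mean difference was -0.03 ± 0.0587 (adjusted p = 0.807; 95% interval -0.16 to 0.09), with 4 of 9 deprived arrays above the sleeping mean of their hour.

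**Figure D4:**
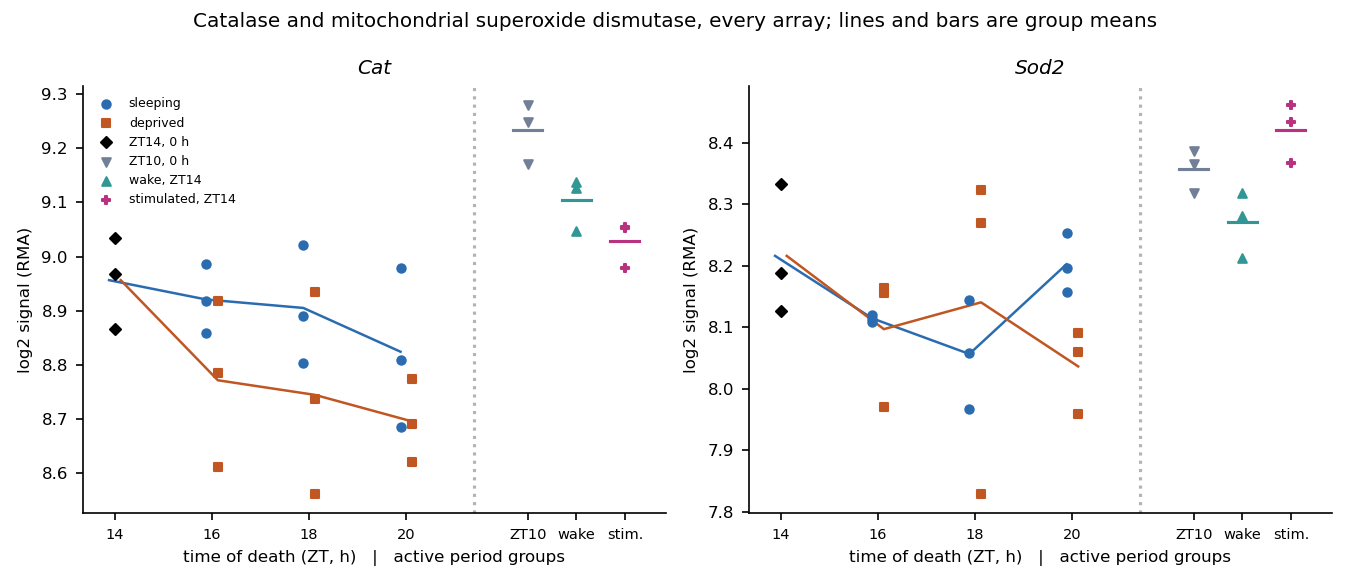
Log2 signal of Cat (left) and Sod2 (right) on every array, by hour of death for sleeping and deprived flies and, right of the dotted line, for the active period groups; lines and short bars are group means. The Cat groups overlap at every hour of the night, and the Sod2 groups separate at ZT20, with deprived arrays from 7.96 to 8.09 and sleeping arrays from 8.16 to 8.25.

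In the night trends, the members below the threshold moved by at most 0.08 log2 units per hour in either direction. In sleeping flies 7 of 38 members had an unadjusted p under 0.05 (18.4%, against 7.89% of all probe sets, 3.92% positive and 3.97% negative), with Gclc positive and 6 others negative, among them GstD1 (-0.07), GstD9 (-0.08) and GstD3 (-0.04). In deprived flies 9 of 38 did (23.7%, against 15.7% of all, 8.06% positive and 7.64% negative), 6 positive and 3 negative, with GstE9 at 0.08 ± 0.0256 (adjusted p = 0.183) and GstE3 at 0.07 ± 0.0227 (adjusted p = 0.212). Cat had slopes of -0.02 in sleeping and -0.04 in deprived flies, and Sod2 of -0.00496 and -0.02. The 6 antennal markers had a median slope of -0.08 in sleeping and 0.05 in deprived flies.

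Handling in the active period tested whether stimulation alone moves these genes at hours when flies are awake. Stimulated flies differed from wake flies in 0 of 38 members (limma; 3 at an unadjusted p under 0.05, 7.89% against 7.03% of all probe sets), where 0.0859% of all probe sets were called. GstD9 gave 6.78, 7.08 and 6.98 in wake and 7.61, 7.25 and 7.34 in stimulated flies, a difference of 0.45 ± 0.114 (1.37-fold, adjusted p = 0.285). GstE3 gave 6.11, 6.35 and 6.38 against 6.52, 6.58 and 6.75, a difference of 0.34 ± 0.0894 (1.26-fold, adjusted p = 0.362). In both genes every stimulated array was above every wake array.

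GstE9 followed at 0.24 ± 0.0996 (adjusted p = 0.661) and GstD1 at 0.22 ± 0.104 (adjusted p = 0.709), each with overlapping groups. Sod2 gave 8.21, 8.28 and 8.32 in wake and 8.43, 8.37 and 8.46 in stimulated flies (difference 0.15, adjusted p = 0.709), again without overlap, and Cat differed by -0.08. In all, 4 of 38 genes had groups apart, 3 higher and 1 lower, beside 12.5% of all probe sets (6.77% higher and 5.75% lower). The difference was above 0 for 25 of the 34 transferase genes, and for 51.2% of all probe sets. At the study's unadjusted threshold of 0.01 for stimulation, GstD9 and GstE3 passed, beside 241 probe sets (1.73%). All 6 antennal markers were higher in stimulated flies (median 0.57), and their part was not tested.

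The 4 h of deprivation and the 4 h of stimulation were set against each other in a fit of all 30 arrays. It called 0 of 38 members and 0 probe sets (limma; percent called 0.0; 1 member and 246 probe sets, or 1.76%, at an unadjusted p under 0.05), so no difference between the 2 effects was shown for any member. The smallest p were those of GstZ2 (-0.22 ± 0.0958), GstO2, an Omega class gene (0.20 ± 0.155), and GstD2 (-0.19 ± 0.156), each with adjusted p = 1. For GstD1 the difference was 0.05 (95% interval -0.31 to 0.41), for Gclm 0.03, for Gclc -0.07, for Cat -0.09 and for Sod2 -0.07. Across the 38 genes the median half-width of this interval was 0.301.

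Undisturbed waking from ZT10 to ZT14 called 0 of 38 members (limma; 4 at an unadjusted p under 0.05, 10.5% against 11.4%), where 0.0644% of all probe sets were. GstE2 gave 6.67, 6.69 and 6.64 at ZT10 and 6.21, 6.48 and 6.25 in wake flies, a difference of -0.36 ± 0.0838 (adjusted p = 0.159) with no overlap. GstD3 (-0.27 ± 0.0935, adjusted p = 0.346) and GstD9 (-0.33 ± 0.114, adjusted p = 0.351) came next. Cat gave 9.28, 9.25 and 9.17 at ZT10 and 9.05, 9.13 and 9.14 in wake flies, and was lower in every wake array (difference -0.13, adjusted p = 0.489). Groups were apart for 8 of 38 genes, 6 lower and 2 higher, beside 16.2% of all probe sets (8.76% higher and 7.48% lower). Sod2 was at -0.09, Gclc at -0.03, Gclm at -0.04 and GstD1 at -0.15. All 6 antennal markers (median -0.25) and all 4 photoreceptor markers (median -0.64) were lower in wake flies than at ZT10. All 7 fat body markers were higher (median 0.41). None of these was called, and whether these shifts bear on the 38 genes was not tested. The hours from ZT10 to ZT14 span lights-off. The wake flies are part of both active period comparisons, so a low wake value lowers one difference and raises the other.

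**Figure D5:**
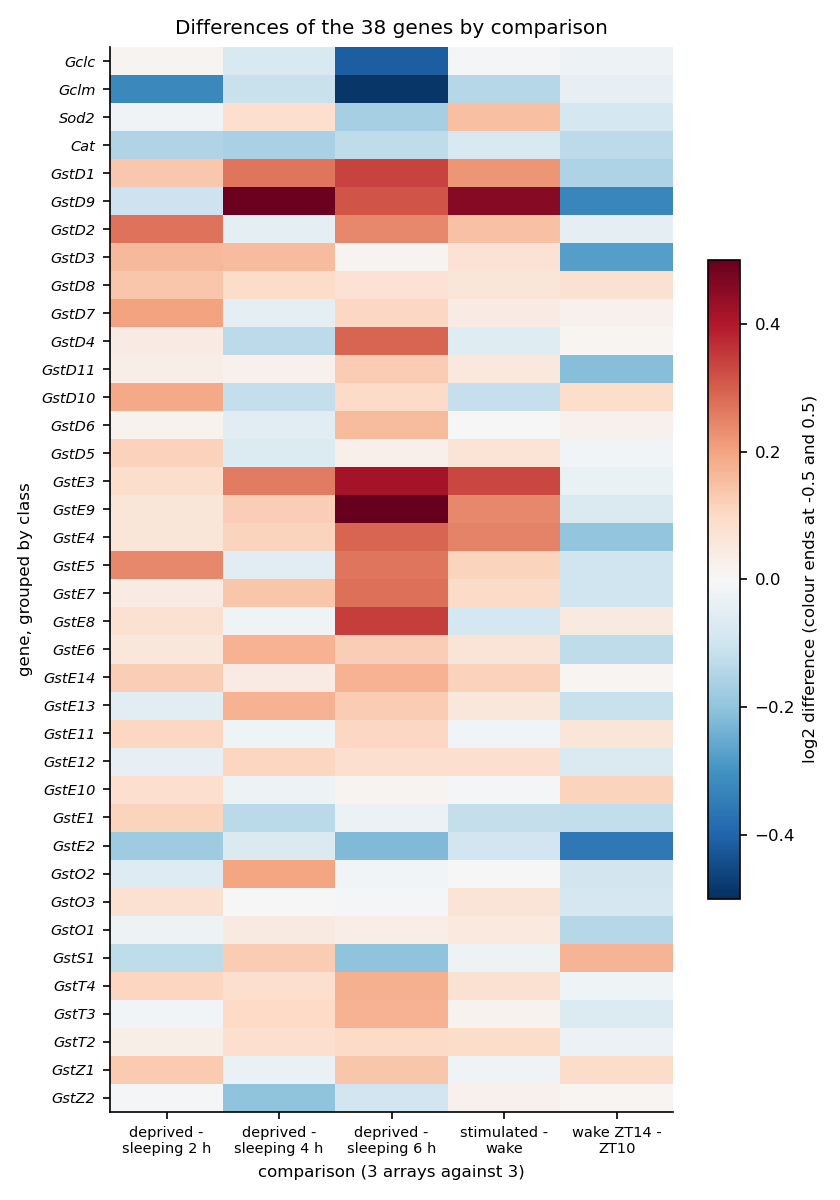
Differences of the 38 genes (rows, by class) in 5 comparisons of 3 arrays against 3, as colour from -0.5 to 0.5 log2 units, red higher and blue lower in the first-named group. The columns for 6 h and for stimulation are red for GstD1, GstD9, GstE3 and GstE9, the 6 h column is blue for Gclc and Gclm, and the last column shares its wake arrays with the stimulation column.

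Other genes of redox defence were taken from 8 lists that hold 65 genes, of which 48 were measured. In the mean over 2, 4 and 6 h, 2 of the 48 rose and 1 fell, where 0.924% of all probe sets were called, and the median difference was 0.01, as over all probe sets. Cyp6a8, a cytochrome P450 of xenobiotic metabolism, rose by 0.31 ± 0.0639 (adjusted p = 0.0204) and by 0.62 at 6 h (adjusted p = 0.0350). The phosphatase gene puc, a target and brake of JNK signalling, rose by 0.37 ± 0.0871 (adjusted p = 0.0456), with 0.49 at 2 h, 0.56 at 4 h and 0.07 at 6 h. Cyp6g1, a cytochrome P450 of insecticide metabolism, fell by 0.48 ± 0.0995 (adjusted p = 0.0224). The calls of these list genes were not recomputed with the run as a block, with single arrays left out or in the other settings. Sleeping and deprived arrays at 6 h were in different runs.

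In the regulator list 0 of 4 genes were called (limma, no member under an unadjusted p of 0.05). The transcription factor gene cnc was at 0.09 (adjusted p = 0.490), its inhibitor Keap1 at -0.03 (adjusted p = 0.810) and the partner maf-S at -0.21 (adjusted p = 0.484). Trxr1, the thioredoxin reductase that recycles glutathione in flies, was at -0.06 (adjusted p = 0.651), and 0 of the 9 measured genes of glutathione synthesis and recycling outside the 38 were called. The smallest p among those 9 was that of gfzf, a nuclear protein with a transferase domain (-0.19, adjusted p = 0.312). Sod3, the extracellular superoxide dismutase, was at 0.25 ± 0.0750 (adjusted p = 0.149), Men, the malic enzyme that supplies NADPH, at 0.18 (adjusted p = 0.305), SelR, a methionine sulfoxide reductase, at -0.13 (adjusted p = 0.323), and the ferritin gene Fer3HCH at 0.10 (adjusted p = 0.354). In the sleeping and the deprived trend 0 of the 48 genes were called (limma; 9 in each, 18.8%, at an unadjusted p under 0.05, against 7.89% and 15.7% of all probe sets). In the stimulation comparison 0 of 48 were called as well (limma; 7 at that threshold, 14.6% against 7.03%), and from ZT10 to ZT14 also 0 (14 at that threshold, 29.2% against 11.4%).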

How the data were processed

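The deposited values are log2 signals that the authors made with RMA, per the series' design text, and the submitters' processing notes name affy and RMA without versions. Whether both experiments were normalised in 1 run is not given in the sources used here, so levels were compared within an experiment. The authors also deposited scanner settings per array, and per the file headers these text fields (used as other information, with no unit) gave the chip lot and the hybridisation time, from which runs were numbered, and they gave none for the 9 active period arrays. Of 14010 probe sets, 44 controls were left out. The platform annotation gives 12443 of the remaining 13966 a single symbol, 327 several and 1196 none, and RefSeq's gene table gave 12394 of them a current symbol by gene number.

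Differences were fitted with limma 3.58.1 in R 4.3.3 (lmFit and eBayes, 1 mean per group) over the 21, 9 or 30 arrays concerned, with Benjamini-Hochberg adjustment over all 13966 probe sets. Slopes are linear over the 4 hours sampled, 0, 2, 4 and 6 h. A group counts as apart where its lowest array is above the highest of the other, or the reverse. The scripts were tested on simulated data. Named are Gclc, Gclm, Sod2, Cat and GstD1 in each comparison, the members past the threshold or else the 3 with the smallest p, and the 5 highest and 3 lowest signals; from each further list, genes past the threshold or the smallest p in the mean. Other names were chosen after their values were seen. The members, lists and markers were chosen with earlier results of these data known. Alternatives changed the filter, normalisation, samples fitted, variance model, batch and replicate blocks, GAPDH covariate, threshold, test and probe set rule, and left out each array.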

Additional observations from a re-analysis of the deposited data

How the results depend on the processing

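The count of members past the threshold was recomputed in 347 combinations of comparison and setting, and 331 kept it. In the mean over 2, 4 and 6 h the count was 0, and rose to 1 with all 30 arrays in 1 fit (Gclm, limma adjusted p = 0.0336). It ranged from 0 to 1 when single arrays were left out. GstE3, Gclm or GstD1 passed without deprived 2 h replicate 1, deprived 2 h replicate 2 or deprived 4 h replicate 1. Of all probe sets 1.48% passed in the 30-array fit and 1.35%, 1.1% and 0.652% without those arrays in turn. The main fit called 0.924%. At 6 h the count was 2 with only the groups compared (0.859% of all probe sets) and 1 with hybridisation run as a block (5.04%). It ranged from 0 to 2 over single arrays left out, with 0.695% of all passing without deprived 2 h replicate 2. The main fit called 0.0931% at that hour. The count of the F test ranged from 0 to 1 over single arrays left out. Without deprived 2 h replicate 2 it called 0.53% of all probe sets, against 0.222% in the main fit. In the sleeping trend the count went from 1 to 0 with the run block, and in the deprived trend from 1 to 0 with the run block, to 0 without run 4 (added after the data were seen), and from 0 to 1 over single arrays left out. Over all probe sets the run block called 0.00716% in the sleeping trend (0.107% in the main fit) and 0.229% in the deprived trend (0.294%). Stimulated against wake flies gave 2 members and 241 probe sets at an unadjusted p of 0.01, against 12 probe sets at the adjusted threshold. The 74 named pairs of gene and comparison were also recomputed, and the sign turned in 23 of them under some setting, in values that were not called before or after. With the run block GstE5 at 2 h was -0.18, GstD1 at 2 h -0.011, Sod2 at 2 h 0.28 and at 4 h -0.10, Gclm at 4 h 0.04, the change of Cat from 2 to 6 h -0.19, and the sleeping slopes of Cat 0.000599 and Sod2 0.072. Without run 4, GstD1 (-0.031), Gclm (0.044), Gclc (0.064) and Sod2 (-0.23) turned at 4 h and Gclc (-0.033) at 2 h. Renewed quantile normalization turned Sod2 to 0.013 in the mean and in the F test's mean, 0.052 at 2 h, 0.0053 in the sleeping slope and 0.022 from ZT10 to ZT14, where Gclm turned to 0.026. With the GAPDH covariate Gclc was 0.036 at 4 h, 0.060 under stimulation and 0.043 from ZT10 to ZT14, and the change of Cat -0.0082. Centring put Gclc at 2 h at -0.000376. Over single arrays left out, Sod2 ranged from -0.064 to 0.019 in the mean, -0.051 to 0.046 at 2 h, -0.0074 to 0.24 at 4 h and -0.012 to 0.0038 in the sleeping slope. Gclc ranged from -0.10 to 0.17 at 2 h, -0.13 to 0.10 under stimulation and -0.14 to 0.096 from ZT10 to ZT14. The change from 2 to 6 h ranged from -0.36 to 0.067 for Gclm and -0.060 to 0.097 for Cat. The difference between both 4 h effects ranged from -0.11 to 0.19 for GstD1, -0.048 to 0.081 for Gclm, -0.16 to 0.090 for Sod2, -0.18 to 0.056 for Gclc and -0.18 to 0.0062 for Cat. The causes were not tested. Member counts at 2 h, at 4 h, of the change from 2 to 6 h, of wake flies against ZT10 and of the difference between both 4 h effects kept their value of 0 in all settings run.

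No pairing of the arrays by replicate number was seen. In the deprivation experiment, deviations of same-numbered arrays of different groups correlated at a median of -0.03 over 63 pairs (range -0.58 to 0.49). Arrays with different numbers had a median of 0.05 over 126 pairs (range -0.52 to 0.56). In the active period experiment the medians were 0.01 over 9 pairs and 0.03 over 18 pairs. With the replicate number as a block the slope of Gclc in sleeping flies was 0.12 (adjusted p = 0.00999) and that of Gclm in deprived flies -0.12 (adjusted p = 0.0395), and no count of members changed (0 or 1 as before). Hybridisation run could not be blocked in the active period experiment. The dim signal of 13 members limits what can be seen of them.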
